A study of Rattus norvegicus with 16 samples.

Results

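Neuropeptide Y (*Npy*) and its Y1 and Y5 receptors (*Npy1r* and *Npy5r*) were followed in the rat diencephalon, through all 4 probe sets that the platform annotation assigns to these 3 symbols, out of 31099 on the array. *Npy* and *Npy1r* had 1 probe set each and *Npy5r* had 2. The genes were chosen from earlier results on these arrays, in which *Npy1r* stood among the genes of smallest p between zinc-deficient and pair-fed rats. The values of that comparison are therefore given as a description, with no test.

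The diencephalon, made up mainly of thalamus and hypothalamus, was taken from 16 male Sprague-Dawley rats, each measured on 1 array, with 4 rats in each of 4 groups. From 5 weeks of age ZD rats had free access for 10 days to food that held 0.6 mg zinc per kg. PF rats were pair-fed to them for 10 days on the control diet with 30 mg zinc per kg. ZR rats had 10 days on the deficient diet and then 6 days on 13 g of the control diet a day. ZRPF rats had 10 days of pair-feeding on the control diet and then the same 6-day ration. All groups could drink 300 mM NaCl on days 6 to 8, and the 16-day groups also on days 14 to 16. The submitters chose the 4 rats of a group as average in body weight, plasma zinc and salt preference, and had removed 16-day rats by their salt preference, so the spread here is that of selected rats. The 10-day and 16-day rats formed separate experiments, so age, time on the ration and experiment cannot be told apart.

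Neuropeptide Y is a peptide transmitter that strongly drives eating. In the arcuate nucleus of the hypothalamus it is made by neurons that also make agouti-related peptide, and its mRNA there rises when food is short. The Y1 receptor (*Npy1r*) and the Y5 receptor (*Npy5r*) are the receptors most tied to its feeding effect, and both couple to inhibitory G proteins. *Npy* is also made outside the arcuate nucleus, for example in the intergeniculate leaflet of the thalamus and in interneurons of the forebrain, and the Y1 receptor is widely expressed in the thalamus.

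On the GRCr8 assembly *Npy* lies on chromosome 4 (80212111 to 80219310, plus strand). *Npy1r* (27804416 to 27814070, minus strand) and *Npy5r* (27822055 to 27830012, plus strand) are neighbours on chromosome 16, transcribed away from each other, with 7984 bases and 0 RefSeq genes between them. The 250 bases before the RefSeq start of each gene are shown because the receptor genes are neighbours on opposite strands whose signals are set side by side in the results. Sequences come from RefSeq on GRCr8 and run 5′ to 3′ on the gene's strand, and capitals mark matches to the motifs named after them. The windows are chr4:80211861-80212110, chr16:27813388-27813637 and chr16:27821805-27822054.
Npy: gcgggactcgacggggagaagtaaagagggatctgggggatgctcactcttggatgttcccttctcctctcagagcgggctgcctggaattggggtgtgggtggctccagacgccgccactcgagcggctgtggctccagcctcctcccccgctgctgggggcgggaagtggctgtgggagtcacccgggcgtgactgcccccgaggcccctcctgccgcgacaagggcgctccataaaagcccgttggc
Npy1r: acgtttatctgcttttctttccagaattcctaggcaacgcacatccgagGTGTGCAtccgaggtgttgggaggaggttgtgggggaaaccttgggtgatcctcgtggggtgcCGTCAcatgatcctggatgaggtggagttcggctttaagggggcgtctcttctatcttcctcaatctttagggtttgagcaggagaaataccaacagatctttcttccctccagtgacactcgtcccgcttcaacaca
Npy5r: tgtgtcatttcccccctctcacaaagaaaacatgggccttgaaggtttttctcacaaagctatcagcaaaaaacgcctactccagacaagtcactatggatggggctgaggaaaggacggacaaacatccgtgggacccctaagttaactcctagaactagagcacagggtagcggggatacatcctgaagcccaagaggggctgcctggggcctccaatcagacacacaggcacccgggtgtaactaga
The letters searched on both strands were those of the cyclic AMP response half-site TGACG, the FOXO site GTAAACA, the STAT site TTCNNNGAA and the core of the metal response element (TGCACNC or TGCGCNC). The metal response element is the sequence that the zinc-sensing factor MTF1 binds. In the *Npy1r* window 1 metal response core and 1 TGACG half-site matched, and no capitals stand in the *Npy* and *Npy5r* windows because none of the 4 motifs matched there. Of 33465 rat windows of the same length, 20.6% held a metal response core, 18.2% a TGACG half-site, 7.67% a STAT site and 3.22% a FOXO site. Other annotated *Npy1r* transcripts start up to 683 bases further upstream.

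Signals are linear MAS5 intensities, a summary of each probe set that scales every array to the same average, and were tested on the log2 scale. Median signals per array ran from 156 to 172. A probe set was tested when its mean log2 signal over the 16 arrays reached the median over probe sets, 7.35 or a signal of 163. *Npy*, *Npy1r* and the brighter *Npy5r* probe set passed this filter. The dimmer *Npy5r* probe set, named for transcript variants of 1 gene, stayed between 61.8 and 108 on every array and did not pass. Markers of the labelled tissue were present: 9 of 9 thalamus and 8 of 12 hypothalamus markers lay above the filter, against 1 of 6 for the pituitary and 3 of 6 for cortex and striatum. Of choroid plexus markers 7 of 9, and of meninges and mural cell markers 8 of 10, also lay above it. The ratio of the 3′ to the 5′ actin control, a sign of RNA integrity and labelling, was higher on the 16-day arrays (log2 2.05 to 2.48) than on the 10-day arrays (1.37 to 1.73).

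In the 10-day experiment the signal of *Npy1r*, the Y1 receptor, was 571, 691, 918 and 636 in ZD rats 2, 3, 8 and 9, against 908, 1123, 1044 and 1123 in PF rats 1, 2, 4 and 6. ZD rats 2, 3 and 9 lay below every PF rat, while ZD rat 8 lay just above PF rat 1, so the groups overlapped through that pair. The mean log2 signal was 9.44 ± 0.29 in ZD rats and 10.03 ± 0.14 in PF rats (SD, n = 4 each), a difference of -0.59 ± 0.12 (SE), or 0.66-fold. Because *Npy1r* was chosen for this comparison, no test is given. In the whole-array fit 0% of the 15521 probe sets passed at an adjusted p of 0.05 in ZD against PF (limma, 0 of 15521, with 1220 at an unadjusted p under 0.05), and 4.19% had groups without overlap. In a piece of brain measured in bulk, fewer cells that express a gene and less RNA per cell cannot be told apart.

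In the 16-day experiment *Npy1r* had signals of 999, 932, 990 and 821 in ZR rats 7, 10, 13 and 15, against 1050, 946, 839 and 957 in ZRPF rats 2, 4, 5 and 6. The groups were interleaved. Their mean log2 signals were 9.87 ± 0.13 in ZR rats and 9.88 ± 0.13 in ZRPF rats, a difference of -0.02 ± 0.12 with an adjusted p = 0.991 in limma. The 95% interval ran from -0.27 to 0.24, which is 0.828-fold to 1.18-fold. Of the 15521 probe sets 0.00644% passed in ZR against ZRPF, that is 1, of *Clstn3*, which is no member and is named after its value was seen. Groups without overlap made up 2.98% of probe sets, and no tested member was among them.

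**Figure D1:**
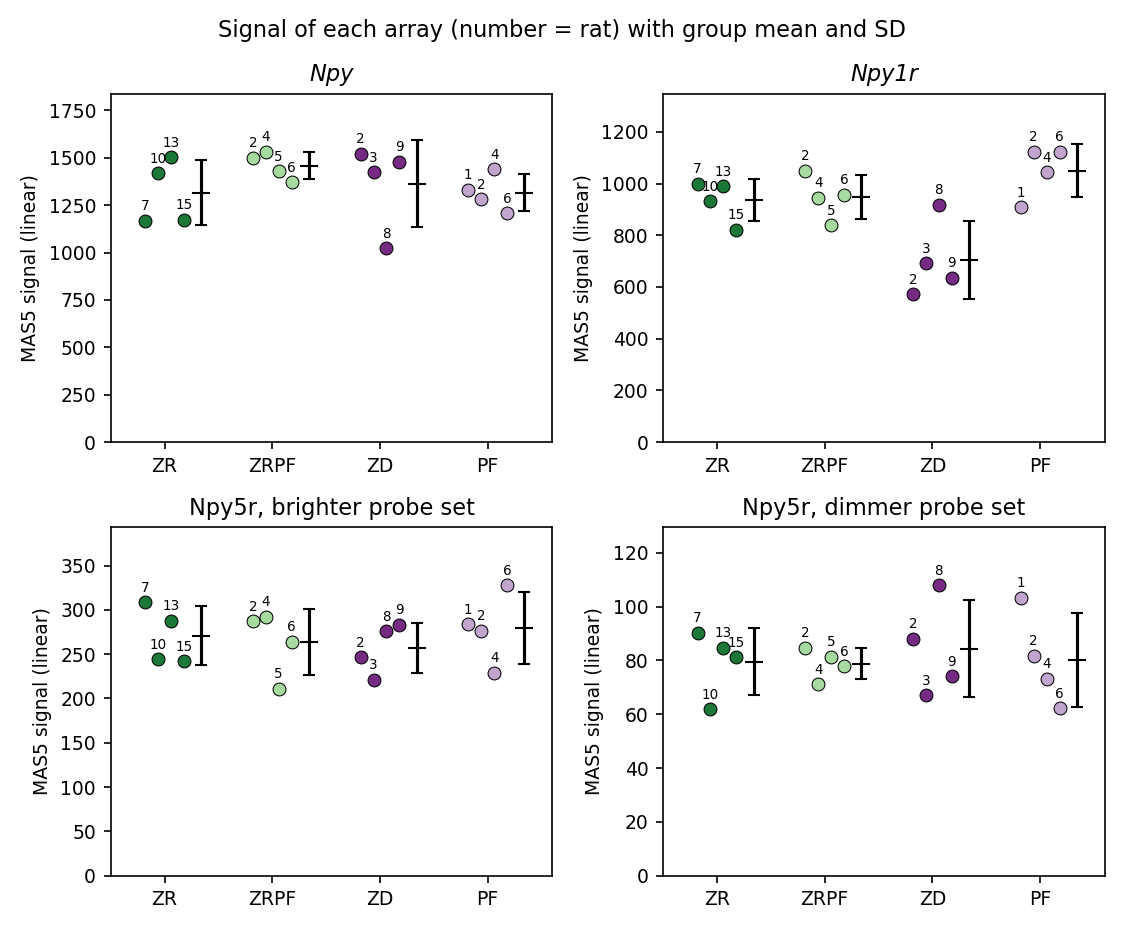
MAS5 signal (linear, y axis) of the 4 probe sets in every array, by group (x axis, 4 rats each), with the rat number above each point and the group mean ± SD beside it. For *Npy1r*, ZD rats 2, 3 and 9 lie at 571, 691 and 636, below all other arrays, and for *Npy*, ZD rat 8 lies lowest at 1024.

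By group mean, *Npy1r* was highest in PF rats, followed by ZRPF, ZR and ZD rats. The step between PF and ZRPF (0.147 on the log2 scale) barely exceeded the larger SD of that pair (0.144), and the step between ZRPF and ZR (0.018) did not exceed it. The step between ZR and ZD (0.43) exceeded the larger SD (0.29). Between the experiments the arms went opposite ways: ZR minus ZD was 0.43, and ZRPF minus PF was -0.15. These values share the ZD and PF arrays with the comparison that led to the choice of the gene, and were not tested. Averaged over arms, 16-day arrays had a mean log2 signal of 9.87 ± 0.12 and 10-day arrays 9.73 ± 0.38 (SD, n = 8 each), a difference of 0.14 ± 0.09 with an adjusted p = 0.228 in limma. In this comparison 30.6% of probe sets passed, and the summed hypothalamus markers were higher on the 16-day arrays (37088 to 44732) than on the 10-day arrays (24963 to 34339), with 11 of 12 markers higher. Without ZD rat 8, the ZD rat of highest *Npy1r*, the difference was 0.21, the largest over single arrays left out (0.095 to 0.21). That fit has groups of unequal size and is not independent of the comparison that led to the choice of *Npy1r*, so no p is given.

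The signal of *Npy*, the gene of the peptide itself, was 1521, 1425, 1024 and 1480 in ZD rats 2, 3, 8 and 9, against 1332, 1282, 1439 and 1207 in PF rats 1, 2, 4 and 6. ZD rat 8 was the lowest of these 8 arrays, and ZD rats 2 and 9 the highest. The mean log2 signal was 10.39 ± 0.27 in ZD rats and 10.36 ± 0.11 in PF rats, a difference of 0.04 ± 0.11, and without ZD rat 8 it was 0.17 ± 0.09.

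After recovery *Npy* had signals of 1168, 1417, 1503 and 1173 in ZR rats 7, 10, 13 and 15, against 1500, 1533, 1429 and 1373 in ZRPF rats 2, 4, 5 and 6. ZR rats 7 and 15 lay below every ZRPF rat and ZR rats 10 and 13 among them. The difference was -0.16 ± 0.11 with an adjusted p = 0.945 in limma, and its 95% interval ran from 0.762-fold to 1.06-fold. The 16-day arrays averaged 10.43 ± 0.16 and the 10-day arrays 10.38 ± 0.19, a difference of 0.05 ± 0.08 (adjusted p = 0.643 in limma). Without ZD rat 8 that difference was -0.01. The order of group means was ZRPF, ZD, PF and ZR, and no neighbours in it differed by more than the larger SD of the pair.

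*Npy5r*, the Y5 receptor, was dimmer. Its brighter probe set had signals of 247, 221, 276 and 283 in ZD rats 2, 3, 8 and 9, against 284, 276, 229 and 328 in PF rats 1, 2, 4 and 6. In the 16-day experiment it had 309, 245, 288 and 242 in ZR rats 7, 10, 13 and 15, against 287, 292, 211 and 264 in ZRPF rats 2, 4, 5 and 6. All 4 groups overlapped, and no neighbours in the order PF, ZR, ZRPF, ZD differed by more than the larger SD of the pair.

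The *Npy5r* log2 difference was -0.12 ± 0.14 in ZD against PF, described without a test. It was 0.04 ± 0.14 in ZR against ZRPF (adjusted p = 0.982 in limma), with a 95% interval from 0.845-fold to 1.26-fold. Between the 16-day and the 10-day arrays it was -0.00 ± 0.10 (adjusted p = 0.978 in limma). The dimmer probe set stood at 0.07 ± 0.21 in ZD against PF and at 0.00 ± 0.21 in ZR against ZRPF, and at that signal the array gives little resolution. Deviations from group means of the 2 *Npy5r* probe sets correlated at 0.18 over 16 arrays.

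**Figure D2:**
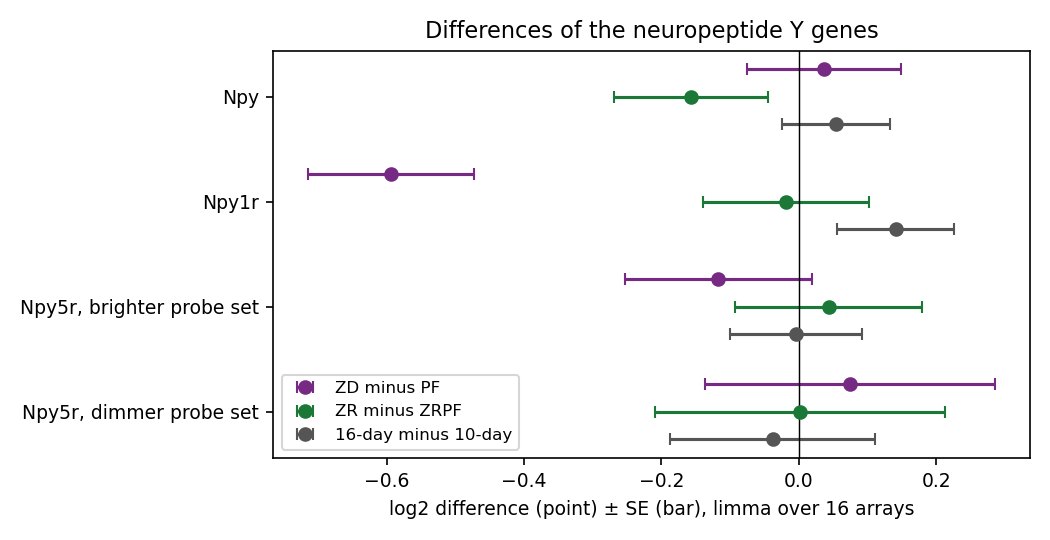
Log2 difference (point) and SE (bar) of each probe set in 3 comparisons, from limma over 16 arrays. *Npy1r* in ZD minus PF, the comparison that led to its choice, lies at -0.59 and the other points lie between -0.16 and 0.14.

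Leaving out single 10-day arrays gave *Npy1r* differences from -0.73 without ZD rat 8 to -0.50 without ZD rat 2. *Npy1r* was chosen for this comparison and 3 ZD rats lay below every PF rat. The sign could hardly change, and the range only describes the size. For *Npy* the difference ran from -0.02 to 0.17, and for *Npy5r* from -0.21 to -0.04. ZD rat 8 was thus the array with the lowest *Npy* and, within its group, the highest *Npy1r* signal.

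**Figure D3:**
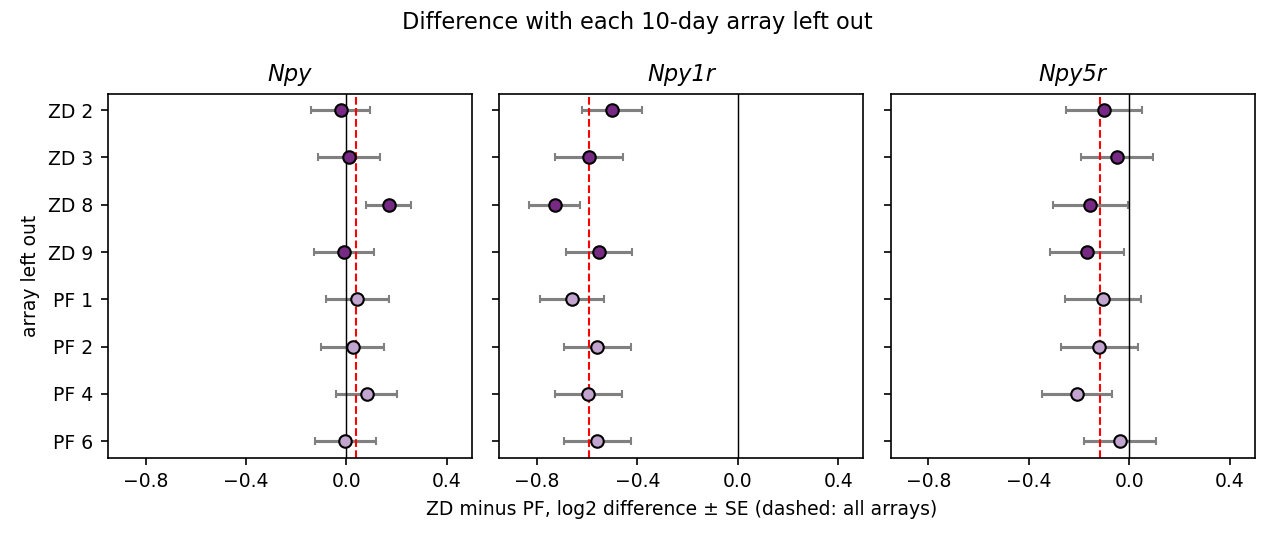
ZD minus PF log2 difference ± SE (x axis) with each 10-day array left out in turn (y axis). The *Npy1r* points, in the comparison that led to its choice, lie between -0.73 and -0.50. The *Npy* point without ZD 8 lies at 0.17, the farthest from the value with all arrays at 0.04.

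Markers of hypothalamus and thalamus varied between arrays, and whether that reflects dissection or marker expression cannot be told apart. Array ZD 8 held the lowest summed signal of hypothalamus markers in its group, 24963, where ZD arrays ranged to 34339 and PF arrays from 28270 to 33144. Of 12 hypothalamus markers on the array, 6 were higher in ZD than in PF and *Sim1*, *Otp*, *Nr5a1* and *Ghrh* lay below the filter. The sum of the thalamus markers ran from 20316 to 24645 in ZD rats and from 23701 to 26678 in PF rats, and 1 of 9 markers was higher in ZD. ZD rats 2 and 3 had the lowest thalamus sums of the 10-day arrays, 20316 and 22108, and ZD rat 8 the highest of its group. With the marker means of thalamus and hypothalamus as covariates, an alternative added after the data were seen, the ZD against PF difference was -0.46 ± 0.11 for *Npy1r*, 0.01 ± 0.12 for *Npy* and 0.07 ± 0.14 for *Npy5r*, the last of opposite sign to its value without them.

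Within groups, the brighter *Npy5r* probe set varied with thalamus markers. Taken as deviations from group means over 16 arrays, this probe set correlated with the mean of the thalamus list at a Pearson r of 0.74 (permutation p = 0.00065) and a Spearman rho of 0.81 (permutation p = 0.00053). Over the 33 relations computed, 3 genes with 11 marker lists, the adjusted values were 0.0214 for r and 0.0175 for rho. It was the only one of the 33 whose r passed. Without the 2 arrays farthest on the thalamus axis r was 0.71, and it was 0.77 in the 8 16-day arrays and 0.71 in the 8 10-day arrays. The dimmer *Npy5r* probe set was not compared with the marker lists, and it correlated with the brighter one at only 0.18.

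*Npy1r* had an r of 0.66 with thalamus markers (permutation p = 0.0161, adjusted 0.177) and a rho of 0.67 (permutation p = 0.00664, adjusted 0.0797), so it did not pass. Its r was 0.65 without the 2 farthest arrays, 0.77 in the 16-day arrays and 0.64 in the 10-day arrays. The brighter *Npy5r* probe set ran against choroid plexus markers at an r of -0.72 (permutation p = 0.00545, adjusted 0.0899) and a rho of -0.71 (permutation p = 0.00725, adjusted 0.0797), which did not pass either. Without the 2 arrays farthest on the choroid plexus axis that r was -0.76, and it was -0.82 in the 16-day arrays and -0.69 in the 10-day arrays. *Npy* correlated with hypothalamus markers at an r of 0.62 (permutation p = 0.0362, adjusted 0.288) and a rho of 0.36 (permutation p = 0.197, adjusted 0.496). That relation rested on ZD 8 and PF 6, since r was 0.23 without the 2 farthest arrays, and it was -0.12 in the 16-day arrays and 0.81 in the 10-day arrays.

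**Figure D4:**
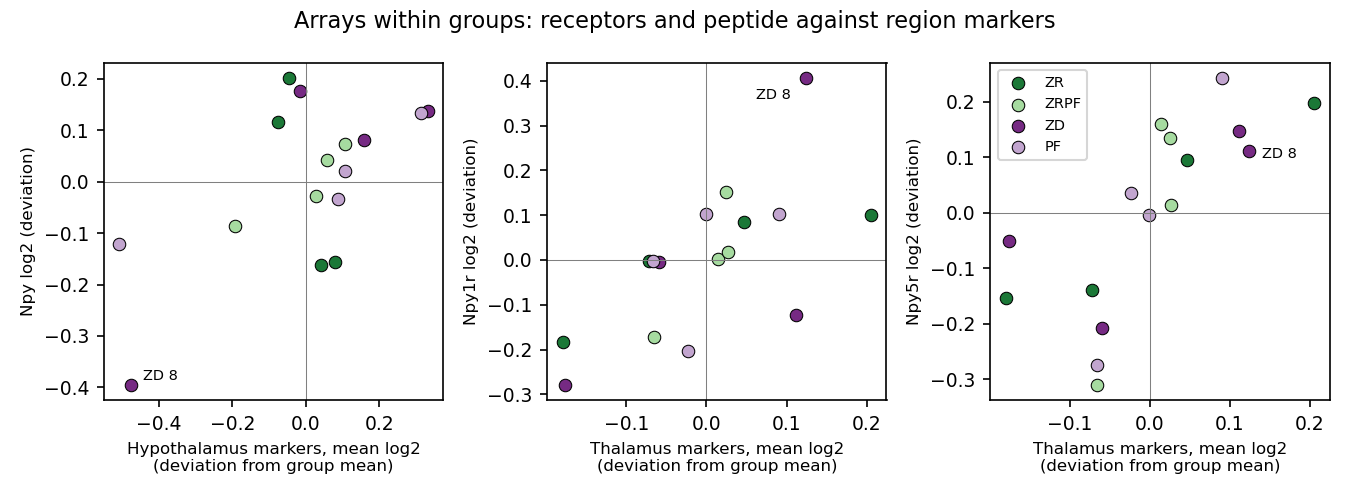
Deviation from the group mean of the log2 signal of *Npy*, *Npy1r* and *Npy5r* (y axes) against that of the mean of hypothalamus or thalamus markers (x axes), 1 point per array. The *Npy5r* points, of its brighter probe set only, rise with thalamus markers (r = 0.74), and array ZD 8 is lowest for *Npy* and highest for *Npy1r*.

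Markers of other cell types are given for the 10-day groups as counts of signs, in a comparison where 0% of all probe sets passed. Of 10 markers of meninges and mural cells 10 were higher in ZD rats, with sums of 4688 to 7017 in ZD and 4183 to 5043 in PF rats. Of 9 choroid plexus markers 8 were higher, with sums of 3015 to 13295 in ZD and 2137 to 3282 in PF rats. Higher in ZD were also 6 of 6 endothelial, 5 of 6 microglia, 4 of 6 cortex and striatum, 2 of 6 pituitary, 1 of 6 astrocyte, 2 of 5 oligodendrocyte and 2 of 5 neuron markers. In ZR against ZRPF, 3 of 10 meninges and mural, 3 of 9 choroid plexus, 7 of 9 thalamus and 5 of 12 hypothalamus markers were higher. Choroid plexus sums varied widely within both groups, from 2184 to 23639 in ZR rats and from 2443 to 25772 in ZRPF rats. The thalamus sum there ran from 21428 to 27652 in ZR rats and from 21996 to 24421 in ZRPF rats, and the hypothalamus sum from 37088 to 43131 in ZR rats and from 40422 to 44732 in ZRPF rats. The part of these lists other than thalamus and hypothalamus in the *Npy1r* differences between groups was not tested. Their relations to *Npy1r* within groups were among those computed above, and none passed.

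The genes whose within-group pattern was most like each member were picked as the 4 with the highest Pearson r of deviations from group means over 16 arrays, a description with no test. For *Npy1r* these were *Pde4d* (0.93), a cyclic AMP phosphodiesterase, *Abi2* (0.92), *Serpini1* (0.90), the neuronal serpin neuroserpin, and *Gpcpd1* (0.88). Their ZD against PF differences ran from -0.18 for *Abi2* to 0.02 for *Gpcpd1*. For *Npy5r* they were *Gpatch11* (0.88), *Lurap1l* (0.85), *Plekhd1* (0.84) and *Rfx5* (0.83), the last a regulator of MHC class II genes. For *Npy* they were *Alyref* (0.84), an mRNA export factor, *Dbndd2* (0.83), *Mrpl45* (0.82), a mitochondrial ribosomal protein, and *Tab1* (0.82), and without array ZD 8 their r fell to between 0.68 and 0.75. Between members the r was 0.44 for *Npy1r* with *Npy5r*, -0.53 for *Npy* with *Npy1r* (-0.16 without ZD 8) and -0.23 for *Npy* with *Npy5r*.

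The other genes of the pathway were followed in 6 lists, with 22 tested genes beside the members. In the family itself the remaining ligands *Pyy* and *Ppy* and the receptors *Npy2r* and *Npy4r* lay below the filter on every array. Their signals were at most 4.82 for *Pyy*, 61.0 for *Ppy*, 39.0 for *Npy2r* and 90.3 for *Npy4r*. Of the 22 other genes 0 passed in ZD against PF and 0 in ZR against ZRPF, where the percentages over all probe sets were 0% and 0.00644%. In the 16-day against the 10-day arrays 13 of the 22 passed, 11 as higher and 2 as lower, beside 30.6% of all probe sets. With the same comparison 11 of 12 hypothalamus markers were higher, and the log2 actin ratio was 2.05 to 2.48 on 16-day and 1.37 to 1.73 on 10-day arrays. The part of either in the calls of the lists was not tested.

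Of 5 tested genes of precursor processing, 3 passed as higher and 1 as lower on the 16-day arrays, where 30.6% of all probe sets passed. *Pcsk1n*, the proSAAS inhibitor of a prohormone convertase, had a mean log2 signal of 11.95 ± 0.11 on 16-day and 11.26 ± 0.15 on 10-day arrays (SD, n = 8 each), a difference of 0.69 ± 0.07 (adjusted p = 4.6e-07 in limma). *Pcsk2*, a prohormone convertase, rose by 0.25 ± 0.09, and *Scg5*, the chaperone of that convertase, fell by 0.15. The median of the list was 0.17, beside -0.01 over all probe sets. In ZD against PF its median was 0.05 and in ZR against ZRPF -0.06, with *Pcsk2* at 0.17 ± 0.13 and *Cpe*, the carboxypeptidase that trims peptide precursors, at -0.15 ± 0.09 as the values of smallest p.

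Of 10 tested genes of inhibitory G protein coupling, 6 passed as higher and 1 as lower on the 16-day arrays, beside the same 30.6% of all probe sets. *Gnai2*, an inhibitory G protein subunit, was higher by 0.44 ± 0.08 and *Arrb2*, an arrestin, by 0.41 ± 0.08. *Gnao1*, the main G protein subunit of neurons, was higher by 0.22 ± 0.04, and *Arrb1*, another arrestin and the 1 gene called lower, stood at -0.24 ± 0.07. The list's median was 0.18 in that comparison, -0.00 in ZD against PF and -0.07 in ZR against ZRPF. *Gnb1*, a shared G protein subunit, is uncertain there, since its brightest probe set, counted among the 6, passed at 0.15, and its other 2 passed the opposite way, at -0.63 and -0.17. *Kcnj6*, a potassium channel subunit opened by these G proteins, stood at -0.24 ± 0.11 in ZD against PF. In ZR against ZRPF *Gnb1* stood at -0.14 ± 0.06 by its brightest probe set, while its other 2 stood at -0.11 and 0.18, so its direction is uncertain there too.

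Of partners and regulators of arcuate *Npy* neurons, 5 genes were tested, and 2 passed as higher on the 16-day arrays, a share near the 30.6% of all probe sets. *Creb1*, a cyclic AMP responsive factor, was higher by 0.90 ± 0.21 and *Foxo1*, a factor held back by insulin signalling, by 0.31 ± 0.11. The GABA transporter *Slc32a1* stood at -0.22 ± 0.09, and *Stat3*, the factor that leptin activates, at 0.40 ± 0.18 by its brighter probe set, while its other probe set passed at 0.49. The list's median was 0.31 there, 0.08 in ZD against PF, with *Creb1* at -0.42 ± 0.30, and -0.07 in ZR against ZRPF, with *Foxo1* at -0.22 ± 0.16. *Ghsr*, *Lepr*, *Insr*, *Isl1*, *Otp*, *Socs3* and *Gad2* lay below the filter by their mean, and *Agrp* and *Bsx* were not analysed here. *Gad2*, with signals from 40.5 to 418, exceeded the filter signal on 8 of the 16 arrays, and 1 *Insr* probe set did so on 4. In the 16-day against 10-day comparison *Arrb1*, *Gnb1* and *Stat3* are named after their values were seen.

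In the melanocortin arm, which opposes *Npy*, *Cartpt* was the only tested gene. It stood at 0.32 ± 0.13 in ZD against PF, -0.07 ± 0.13 in ZR against ZRPF and 0.10 ± 0.09 in 16-day against 10-day arrays, and none of these passed (adjusted p = 0.565, 0.967 and 0.444 in limma). *Nos1* and *Chodl*, markers of *Npy* interneurons, lay below the filter and *Lhx6* was not analysed here, so only *Sst*, somatostatin, was tested. It had a mean log2 signal of 9.59 ± 0.09 in ZD rats and 9.81 ± 0.11 in PF rats, a difference of -0.22 ± 0.13 (adjusted p = 0.709 in limma), with groups that did not overlap, as in 4.19% of probe sets. It stood at 0.04 ± 0.13 in ZR against ZRPF and at 0.02 ± 0.09 in 16-day against 10-day arrays. Which cells gave the *Sst* signal cannot be told in brain measured in bulk.

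**Figure D5:**
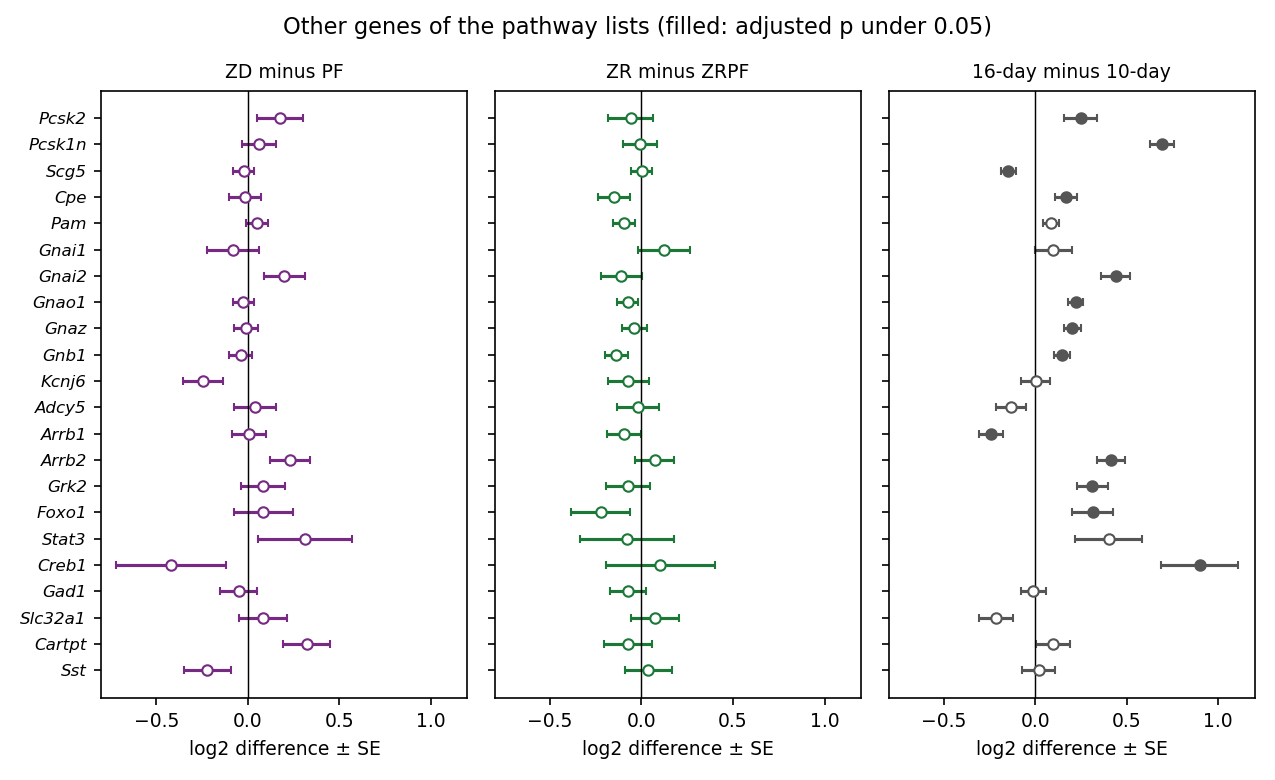
Log2 difference ± SE (x axis) of the 22 other tested genes of the pathway lists (y axis) in 3 comparisons, filled where the adjusted p was under 0.05. No point is filled in ZD minus PF or ZR minus ZRPF, and 13 are filled in 16-day minus 10-day.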

How the data were processed

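The authors deposited MAS5 intensities on a linear scale for each of the 16 arrays, per the sample titles and the submitters' processing notes, which name no MAS5 version. Per the labels RNA had been labelled from its 3′ end. With the highest and lowest 2% of values left out, every array averaged 500.1. Depth does not apply, and for arrays the number of rats limits precision.

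After setting aside 57 control probe sets, signals were taken as log2 with no further normalization, and 15521 of 31042 probe sets were tested. Platform gene IDs were matched to RefSeq symbols: 20826 probe sets had 1 gene, 436 several and 9780 none. Lists used each gene's brightest tested probe set.

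A single limma model (version 3.58.1, R 4.3.3) held all 4 groups (intensity trend, Benjamini-Hochberg over all probe sets tested, threshold 0.05, two-sided). The pipeline was tested on simulated data. Correlations with marker lists used 100000 two-sided permutations within groups. Members and lists were chosen with earlier results of these data known. Named genes were the members, up to 3 genes of smallest p per list and the 4 most like each member. Alternatives were another normalization, centring, filter, offset, variance trend, array weights, fewer arrays, a replicate block, another probe set and marker covariates.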

Additional observations from a re-analysis of the deposited data

Results flagged for a closer look

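The *Npy* signal of ZD rat 8 stood apart from its group, at a log2 signal of 10.00 where the nearest other ZD rat had 10.48, a gap of 0.835 of the group's range, just past Dixon's critical value for 4 samples. Over the 4 member probe sets and 4 groups, 16 sets of 4 arrays were checked in this way and 1 stood apart. Chance flags about 1 in 20 such sets. The same array had the lowest summed hypothalamus markers of its group (24963), and the part of those markers in its *Npy* signal was not tested.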

How the results depend on the processing

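For ZD against PF, *Npy1r* ran from -0.74 to -0.46 over 19 alternatives, with -0.73 to -0.50 over single arrays left out. These reuse the values for which *Npy1r* was chosen, so their shared sign is no separate support. *Npy* ranged from -0.02 to 0.17 and *Npy5r* from -0.25 to 0.07. In ZR against ZRPF no member passed under any alternative. *Npy* was lower in ZR rats throughout (-0.22 to -0.10), while single arrays moved *Npy1r* between -0.076 and 0.043 and *Npy5r* between -0.060 and 0.097, and the marker covariates turned *Npy5r* to -0.014. In 16-day against 10-day arrays, *Npy* turned to -0.0013 with median centring, -0.010 without ZD rats 8 and 9 and -0.072 with the covariates, and ran from -0.012 to 0.083 over single arrays left out. *Npy1r* ran from 0.095 to 0.21 over single arrays and passed with the covariates, added after the data were seen (0.25). Since the covariates vary between ZD and PF rats, that fit is not independent of the comparison that led to the choice of *Npy1r*, and no p is given. It also passed without ZD rat 8, the only single array whose removal did so, in a fit not independent of the comparison that led to its choice. *Npy5r* turned to 0.022 with array weights, 0.061 without ZD rats 8 and 9 and 0.074 with the covariates, and ran from -0.050 to 0.047 over single arrays. The cause was not tested.

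Calls over all probe sets in ZD against PF ran from 0 to 3 over single arrays left out, with 3 without ZD rat 8, and were 1 without ZD rats 8 and 9. In ZR against ZRPF they ran from 0 to 9 over single arrays, with 9 without ZRPF rat 6 and no member among them. They were 0 with quantile normalization, no filter, the 10348 brightest probe sets, no intensity trend or only the 8 arrays compared. In 16-day against 10-day arrays they ran from 3556 to 5268, over unlike numbers of probe sets tested. The lowest was 3556 of the 10348 brightest probe sets and the highest 5268 of 15521 with median centring. With no filter 5265 of 31042 passed, beside 4747 of 15521 in the fit reported above.

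PF and ZRPF, of separate experiments, share rat numbers 2, 4 and 6, whose deviations correlated at 0.079, 0.020 and 0.035, and the numbers were not taken as pairs. ZD and PF share only number 2, and whether single PF rats were matched to single ZD rats was not checked. As a random replicate block the rat numbers changed no call of a member (*Npy1r* -0.60 in ZD against PF, -0.02 in ZR against ZRPF and 0.14 in 16-day against 10-day arrays), with 0, 1 and 4801 calls over all probe sets. Dim probe sets limit what can be seen of *Npy5r* and of the receptors below the filter.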
